A study of Mus musculus with 17 samples.

Results

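Semaphorins, slits, netrins and ephrins are guidance ligands, and plexins, neuropilins, robos, UNC5 proteins and Eph kinases are their receptors. The set described here was taken by mouse gene symbol: every protein-coding gene whose symbol starts with Sema3 to Sema7, Plxn, Nrp1, Nrp2, Slit1, Slit2, Slit3, Robo, Ntn, Unc5, Epha, Ephb, Efna or Efnb and that had at least 10 counts in at least 4 of the 17 libraries. Of 72 such symbols, 63 met the count minimum, out of 35896 gene identifiers in the files, of which 13987 met the same minimum. All 20 semaphorins, all 9 plexins, both neuropilins, all 3 slits and all 8 ephrins were kept, with 3 of 4 robos, 5 of 6 netrins, 5 of 9 EphA and 4 of 5 EphB receptors, and the netrin receptors Unc5a, Unc5b and Unc5c. Unc50 entered through its prefix alone and is not a netrin receptor, which leaves 36 ligands and 26 receptors. The 9 that fell short were Epha5, Epha6, Epha8, Epha10, Ephb1, Ntng1, Robo4, Unc5cl and Unc5d. Nearest to the minimum, Plxnb3 reached 10 counts in exactly 4 libraries, all of control medium. Ntn5 did so in 5, every TGF-beta library and control PSC5 replicate 2. Sema5b did so in 6, every TGF-beta library and PSC4 control replicates 2 and 3. These genes thus entered the set through the group in which they were high, and their calls involving that group are not independent of the count minimum. The highest count of Ntng1 in any library was 7 and that of Epha8 was 5.

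Guidance cues were first described in the nervous system, where they attract or repel growing axons, but they also act on the shape, adhesion and migration of fibroblasts, endothelial cells and tumor cells. Secreted class 3 semaphorins mostly signal through a neuropilin bound to a plexin, membrane-bound semaphorins through plexins directly, slits through robos, netrins through Dcc, neogenin and UNC5 receptors, and ephrins through Eph receptor tyrosine kinases on the neighbouring cell. Pancreatic stellate cells are the resident mesenchymal cells of the pancreas that become fibroblasts in tumors, and TGF-beta drives their contractile, matrix-producing state.

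The libraries came from 2 mouse lines of these cells, PSC4 and PSC5, both wild type on the C57BL/6J strain, grown in Matrigel, a basement membrane gel, for 4 days. Control medium was used in 5 libraries (3 of PSC4 and 2 of PSC5). TGF-beta at 20 ng/mL, medium conditioned by tumor organoids (CM), and CM with 300 nM neratinib, an irreversible inhibitor of ERBB receptor kinases, were used in 4 libraries each (2 of each line). PSC4 was at passages 23 to 25 and PSC5 at 27 to 28, and no library received neratinib without CM. The labels do not say that replicates came from separate animals or isolations, so the p-values measure the spread between these samples of 2 lines, which may be technical. The comparisons ask how each medium changed the stellate cells and what the ERBB inhibitor changed in CM.

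Between 22168953 and 29421447 estimated counts were assigned to genes per library. Levels are given below as CPM, the counts of a gene divided by the library total as adjusted by its TMM factor and scaled to a common depth, always in the order PSC4 before PSC5 and rising replicate number; TGF-beta has PSC4 replicates 2 and 3, and both CM groups have replicates 1 and 2 of each line. Replicate 1 of PSC4, which exists for each medium except TGF-beta and so makes up 3 libraries, resembled PSC5. Ephb2, an EphB receptor, measured 15.4 to 23.5 CPM in these 3, 49.1 to 62.1 CPM in the other 6 PSC4 libraries and 16.3 to 28.4 CPM in the 8 PSC5 libraries. Their deviations from group means over all genes correlated at -0.54 to -0.18 with PSC4 libraries of other groups and at -0.15 to 0.38 with PSC5 libraries. Counts of called genes are therefore given with and without these 3. All 12 stellate cell and fibroblast markers averaged over 1 CPM in every group, with a summed level of 4586 to 6006 CPM in control, 9617 to 16409 CPM with TGF-beta, 5250 to 6619 CPM in CM and 4288 to 6481 CPM with neratinib. The 20 epithelial markers summed to 18.8 to 30.1 CPM in control and 16.8 to 23.8 CPM with TGF-beta, but to 24.4 to 197 CPM in CM and 11.1 to 344 CPM with neratinib, where the 4 libraries of medium code T6 had 156 to 344 CPM and the 4 of code T8 had 11.1 to 55.9 CPM. The 10 Schwann and neural markers summed to 105 to 152 CPM with TGF-beta, above the 47.4 to 89.5 CPM of control, the 52.1 to 80.1 CPM of CM and the 39.5 to 60.8 CPM with neratinib. Most of that sum was a single gene, Tubb3, with means of 56.2 CPM in control and 120 CPM with TGF-beta. Tubb3 averaged 55.9 CPM in CM and 47.2 CPM with neratinib. The 10 macrophage and leukocyte markers summed to 14.3 to 17.6 CPM in control, 7.95 to 9.02 CPM with TGF-beta, 27 to 53.0 CPM in CM and 35.6 to 68.0 CPM with neratinib, with no overlap between control and any other medium, while the pan-leukocyte gene Ptprc had at most 1 count in any library. Most of the macrophage and leukocyte sum was Cd14, with means of 12.9 CPM in control and 4.67 CPM with TGF-beta. Cd14 averaged 37.4 CPM in CM and 49.4 CPM with neratinib. The 10 endothelial markers summed to at most 37.5 CPM. The part of these marker levels in the results below was not tested.

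To set sequence beside the response to TGF-beta, the proximal promoters are shown of the 3 genes that rose most and the 3 that fell most among those named with values in every library and matched to a promoter, each from 250 bases before to 50 after the annotated start (RefSeq, GRCm38.p6). A promoter was matched for 55 of the 63 genes, using the first listed start, and none was matched for Plxna4. Capitals mark CAGAC, the core of a SMAD binding element, or its reverse complement GTCTG. SMAD proteins carry the TGF-beta signal to DNA.
Ntn5 (chr7:45683772-45684071, plus strand): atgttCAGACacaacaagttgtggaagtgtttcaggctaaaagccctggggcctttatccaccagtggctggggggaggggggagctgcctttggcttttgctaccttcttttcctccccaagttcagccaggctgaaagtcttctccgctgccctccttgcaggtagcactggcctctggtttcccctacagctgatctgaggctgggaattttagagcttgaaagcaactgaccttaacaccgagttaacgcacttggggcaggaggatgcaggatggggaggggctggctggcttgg
Sema7a (chr9:57939862-57940161, plus strand): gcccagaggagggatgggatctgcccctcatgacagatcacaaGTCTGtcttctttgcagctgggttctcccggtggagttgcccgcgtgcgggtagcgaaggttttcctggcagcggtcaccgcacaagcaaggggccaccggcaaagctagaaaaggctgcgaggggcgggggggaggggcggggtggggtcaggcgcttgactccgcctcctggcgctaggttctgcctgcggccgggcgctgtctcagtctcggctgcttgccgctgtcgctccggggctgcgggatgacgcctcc
Sema5b (chr16:35541112-35541411, plus strand): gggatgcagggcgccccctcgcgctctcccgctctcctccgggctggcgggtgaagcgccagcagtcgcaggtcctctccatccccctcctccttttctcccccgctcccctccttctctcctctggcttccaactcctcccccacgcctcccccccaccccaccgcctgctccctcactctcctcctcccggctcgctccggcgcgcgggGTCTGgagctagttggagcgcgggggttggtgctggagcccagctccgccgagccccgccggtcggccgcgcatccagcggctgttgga
Robo3 (chr9:37433126-37433425, minus strand): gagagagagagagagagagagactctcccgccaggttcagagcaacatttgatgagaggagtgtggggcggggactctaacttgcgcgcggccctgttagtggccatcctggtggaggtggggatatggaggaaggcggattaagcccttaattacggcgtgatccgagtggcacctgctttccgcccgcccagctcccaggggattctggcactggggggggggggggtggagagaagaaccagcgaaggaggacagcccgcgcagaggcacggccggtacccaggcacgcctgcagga
Slit3 (chr11:35121206-35121505, plus strand): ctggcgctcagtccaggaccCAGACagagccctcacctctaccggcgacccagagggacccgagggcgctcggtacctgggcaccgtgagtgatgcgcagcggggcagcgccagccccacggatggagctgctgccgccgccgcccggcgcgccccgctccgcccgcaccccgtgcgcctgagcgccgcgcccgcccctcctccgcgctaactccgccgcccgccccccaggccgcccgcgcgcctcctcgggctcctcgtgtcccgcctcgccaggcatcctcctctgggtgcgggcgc
Epha4 (chr1:77515039-77515338, minus strand): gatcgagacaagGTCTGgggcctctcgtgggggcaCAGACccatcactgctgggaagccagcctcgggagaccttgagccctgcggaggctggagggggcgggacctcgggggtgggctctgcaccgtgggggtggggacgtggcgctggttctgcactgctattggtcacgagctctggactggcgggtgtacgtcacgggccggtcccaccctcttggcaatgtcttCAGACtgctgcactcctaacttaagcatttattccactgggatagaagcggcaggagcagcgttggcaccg
The letters occur once each in Ntn5, Sema7a and Sema5b, which rose, and among those that fell once in Slit3, 3 times in Epha4 and 0 times in Robo3. CAGAC on either strand was found in 6 of 10 matched promoters of genes called higher with TGF-beta (60.0%), in 6 of 13 of those called lower (46.2%), in 30 of all 55 (54.5%) and in 49.7% of 27025 promoters of that length. The AP-1 letters TGANTCA were in 0 of the 10, 0 of the 13 and 7.93% of all promoters, and the TEAD letters CATTCC in 2 of the 10 (20.0%), 1 of the 13 (7.69%) and 14.6% of all promoters. Matches were searched separately, since the end of the AP-1 letters can overlap the start of either other motif. A match describes these windows only and was not tested as a binding site.

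**Figure D1:**
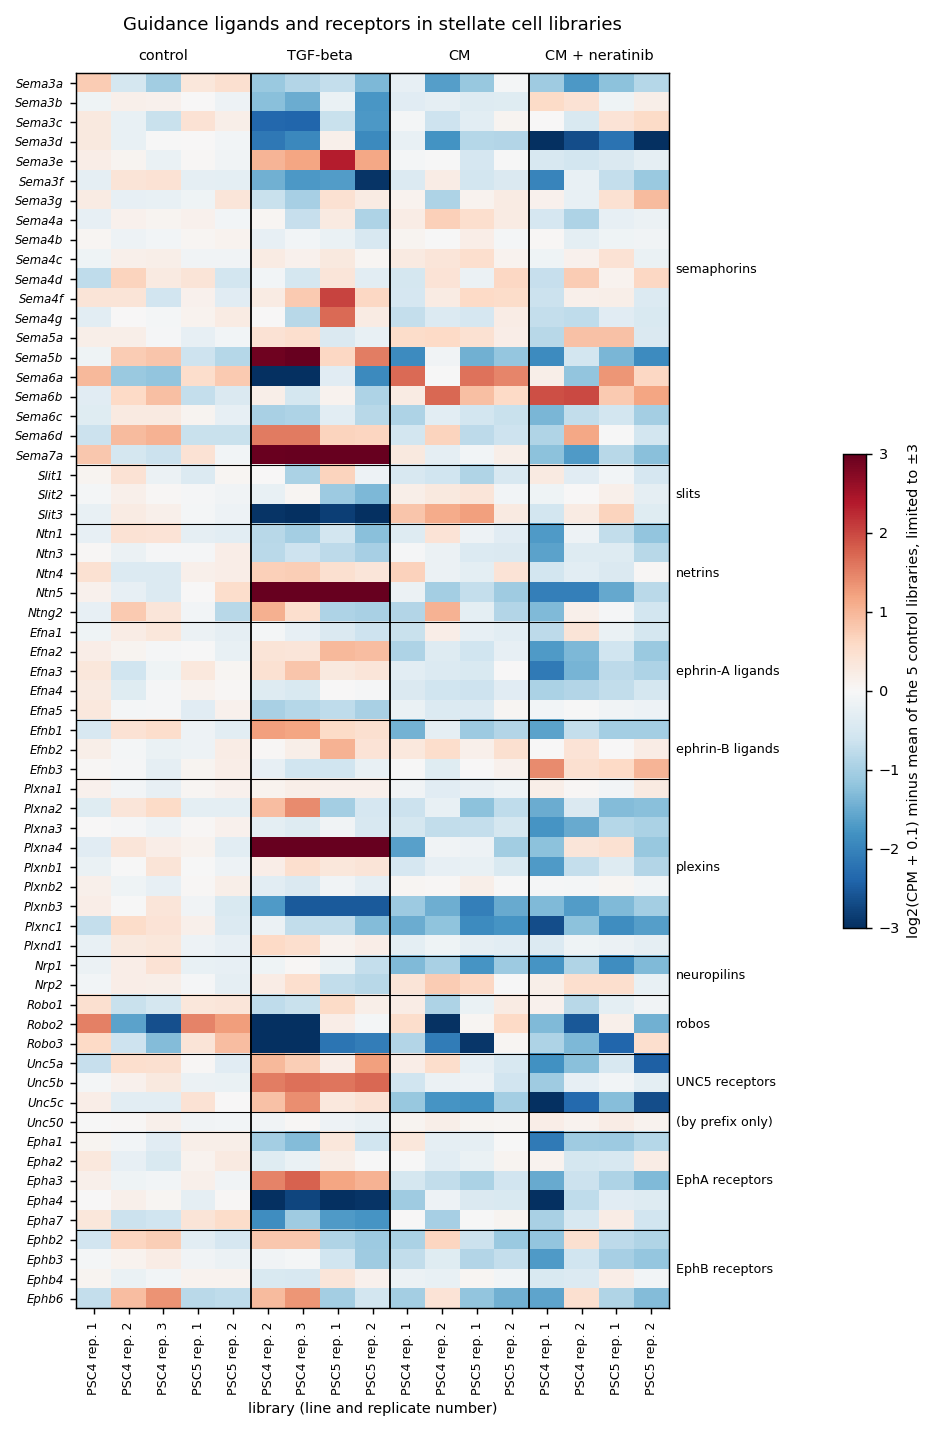
All 63 genes (rows, by family) in all 17 libraries (columns, by medium), as log2(CPM + 0.1) minus the mean of the 5 control libraries, with colours limited to differences of 3. Plxna4, Ntn5 and Sema7a are dark red in all 4 TGF-beta libraries, Slit3 and Epha4 are dark blue in them, and blue cells outnumber red ones in the libraries of CM with neratinib, in which 49 of the 63 fitted changes were below 0.

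TGF-beta moved guidance genes in both directions and by large factors. The plexin Plxna4, the netrin Ntn5 and the semaphorin Sema7a rose most, and Slit3, Epha4, Robo3 and Plxnb3 fell most. A gene is called here when edgeR's quasi-likelihood test gave a Benjamini-Hochberg adjusted p under 0.05 over all 13923 genes tested, and log2 changes are given with standard errors derived from the test statistic. Of the 63, 28 were called against control, beside 40.2% of all genes: 11 were higher (19.7% of all genes) and 17 lower (20.5% of all genes). The 11 include Ntn5 and Sema5b, and the 17 include Plxnb3, each kept by the count minimum through the group in which it was high. By role, 7 ligands and 4 receptors rose, and 12 ligands and 5 receptors fell. The median change of the 63 was -0.22 on the log2 scale against -0.02 over all genes, and the median size of change was 0.56 against 0.27. The call came with a log2 change of 1 or more in size for 18, beside 12% of all genes, of which 8 were higher, beside 5.24% of all genes. In these bulk cultures fewer cells of a kind and less RNA per cell cannot be told apart. Without the library labelled PSC4 replicate 1 in each group that has one, 38 were called (16 higher and 22 lower), beside 49.4% of all genes.

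Among the ligands, Sema7a, a membrane-anchored semaphorin that binds plexin C1 and beta-1 integrins, measured 27.1, 10.7, 9.94, 21.01 and 14.6 CPM in control, 121, 137, 171 and 176 CPM with TGF-beta, 19.1, 12.9, 14.7 and 17.4 CPM in CM, and 6.51, 4.67, 8.69 and 6.42 CPM in CM with neratinib. All 4 TGF-beta libraries lay above every other library, by a mean of 9.06-fold over control (log2 change 3.15 ± 0.26, adjusted p = 3.96e-07). Ntn5, a member of the netrin family, measured 0.358, 0.2503, 0.211, 0.323 and 0.496 CPM in control, 10.8, 9.46, 6.36 and 6.67 CPM with TGF-beta, 0.272, 0.106, 0.153 and 0.101 CPM in CM, and 0, 0, 0.0432 and 0.138 CPM in CM with neratinib. It was near the detection limit outside TGF-beta, at 14 counts or fewer per library, and at 148 to 287 counts in the TGF-beta libraries (log2 change 4.65 ± 0.42, adjusted p = 9.58e-07). Without the TGF-beta libraries Ntn5 would not have met the count minimum, so a rise was favoured by the rule. Sema5b, a transmembrane semaphorin with thrombospondin repeats, measured 0.238, 0.536, 0.564, 0.144 and 0.106 CPM in control, 2.71, 6.68, 0.473 and 0.976 CPM with TGF-beta, 0, 0.247, 0.0382 and 0.0671 CPM in CM, and 0, 0.156, 0.0432 and 0 CPM in CM with neratinib. Both PSC4 libraries with TGF-beta exceeded all others, while the PSC5 libraries with TGF-beta exceeded their own line's controls but overlapped those of PSC4 (log2 change 3.05 ± 0.60, adjusted p = 0.00094). Sema5b too would not have met the count minimum without the TGF-beta libraries.

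Sema3e, a secreted semaphorin that binds plexin D1 without a neuropilin, measured 6.28, 5.72, 4.69, 5.57 and 5 CPM in control, 11.1, 12.4, 27.9 and 12.2 CPM with TGF-beta, 5.16, 5.398, 3.79 and 5.399 CPM in CM, and 3.83, 3.697, 3.98 and 4.49 CPM in CM with neratinib. Every TGF-beta library was above every control, and PSC5 replicate 1 was the highest (log2 change 1.51 ± 0.23, adjusted p = 0.000127). Its receptor gene Plxnd1 was also called higher, with means of 151 CPM and 119 CPM. Sema6d, a transmembrane semaphorin, measured 5.53, 16.8, 17.9, 5.39 and 5.46 CPM in control, 25.7, 25.7, 13.8 and 13.6 CPM with TGF-beta, 5.91, 13.9, 5.01 and 5.6 CPM in CM, and 4.597, 19.5, 8.56 and 5.87 CPM in CM with neratinib. Within each line it was higher with TGF-beta, but over both lines the groups overlapped (log2 change 1.09 ± 0.38, adjusted p = 0.0314), and leaving out any 1 of 7 of the 9 libraries ended the call, with adjusted p between 0.0222 and 0.0711 over the 9. Without the library labelled PSC4 replicate 1 and its 2 CM counterparts the value was 0.93 on the log2 scale (adjusted p = 0.000244).

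The ephrins Efna2, which is anchored to the membrane by a lipid, and Efnb1, which spans it, rose too. Efna2 measured 5.84, 5.399, 4.93, 5.07 and 4.36 CPM in control, 6.72, 6.61, 10.1 and 9.72 CPM with TGF-beta, 2.62, 3.88, 3.33 and 4.26 CPM in CM, and 1.49, 1.95, 3.33 and 2.29 CPM in CM with neratinib. The TGF-beta libraries were all above the controls, and both CM groups were all below them (log2 change 0.63 ± 0.19, adjusted p = 0.0173). That call was lost without control PSC5 replicate 1 (adjusted p = 0.0537) or replicate 2 (adjusted p = 0.0549). Efnb1 measured 18.4, 34.6, 37.2, 23.3 and 20.6 CPM in control, 60.3, 58.9, 38.6 and 36.1 CPM with TGF-beta, 9.55, 21.3, 12.1 and 13.9 CPM in CM, and 8.43, 15.8, 12.7 and 12.7 CPM in CM with neratinib. Except that PSC5 replicate 2 with TGF-beta lay below PSC4 control replicate 3, TGF-beta libraries were the higher (log2 change 0.88 ± 0.24, adjusted p = 0.00954).

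Several secreted semaphorins fell. Sema3f, which repels axons through neuropilin 2, measured 38.3, 60.1, 62.98, 38.5 and 37.98 CPM in control, 17.02, 13.98, 14.3 and 5.98 CPM with TGF-beta, 34.7, 53.7, 31.4 and 34.2 CPM in CM, and 11.6, 39.6, 28.4 and 21.3 CPM in CM with neratinib. No TGF-beta library reached any control (log2 change -1.86 ± 0.32, adjusted p = 0.000331). Sema3c measured 21.8, 15.3, 11.1, 23.99 and 20.2 CPM in control, 3.38, 3.32, 11.2 and 5.33 CPM with TGF-beta, 16.99, 11.5, 14.3 and 18.9 CPM in CM, and 18.1, 12.9, 23.6 and 26.7 CPM in CM with neratinib. The TGF-beta library of PSC5 replicate 1 was level with the lowest control, and the others were below all controls (log2 change -1.81 ± 0.27, adjusted p = 0.000105). Sema3b measured 10.6, 12.9, 12.7, 11.8 and 10.5 CPM in control, 4.85, 4.08, 10.1 and 3.38 CPM with TGF-beta, 9.11, 9.703, 8.87 and 9.02 CPM in CM, and 17.3, 15.6, 10.6 and 13.1 CPM in CM with neratinib. All TGF-beta libraries were below all controls, PSC5 replicate 1 only just (log2 change -1.06 ± 0.25, adjusted p = 0.004).

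Sema3a, the neuropilin 1 ligand that collapses growth cones, measured 78.2, 32.2, 22.3, 59.2 and 64.6 CPM in control, 21.4, 25.3, 28.3 and 18.3 CPM with TGF-beta, 39.2, 14.7, 21.1 and 44.4 CPM in CM, and 22.3, 13.9, 19.8 and 25.8 CPM in CM with neratinib. Control libraries spread widely and the lowest, PSC4 replicate 3, overlapped the TGF-beta libraries (log2 change -1.14 ± 0.36, adjusted p = 0.0193). The call was lost without control PSC4 replicate 1 (adjusted p = 0.058) or TGF-beta PSC5 replicate 2 (adjusted p = 0.0642), and held without the 3 libraries labelled PSC4 replicate 1 (log2 change -0.8, adjusted p = 0.0323). Sema6a, a transmembrane ligand of A-type plexins, measured 25.3, 5.86, 5.57, 18.4 and 21.98 CPM in control, 1.05, 1.16, 9.97 and 3.29 CPM with TGF-beta, 41.7, 12.7, 39.7 and 35.4 CPM in CM, and 14.4, 5.56, 31.8 and 19.8 CPM in CM with neratinib. PSC4 libraries other than replicate 1 were lower than PSC5 in every medium, and within each of these sets TGF-beta was below control (log2 change -2.36 ± 0.60, adjusted p = 0.00568).

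Slit3, a secreted ligand of robo receptors, had the largest fall among ligands. It measured 79.2, 110.2, 103, 89.1 and 83.3 CPM in control, 11.9, 8.67, 12.98 and 3.54 CPM with TGF-beta, 164, 200, 216 and 112 CPM in CM, and 62.5, 109, 147 and 71.9 CPM in CM with neratinib. No TGF-beta library came near a control, the mean being 10.0-fold lower (log2 change -3.32 ± 0.36, adjusted p = 5.65e-06). Slit2 fell less, from a mean of 506 CPM to 348 CPM, and per kilobase of exon it had the higher level of the pair in control, at 19.9 CPM per kilobase beside 15.3 for Slit3. The length used here and below is that of all annotated exons of a gene merged, 25.4 kilobases for Slit2 and 6.07 for Slit3. Orders per kilobase depend on that length, which need not be that of the transcripts present. Ntn1, the founding netrin, fell from a mean of 167 CPM to 87.0 CPM, and Ntn3, Efna5, Sema4b and Sema6c were also called lower.

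**Figure D2:**
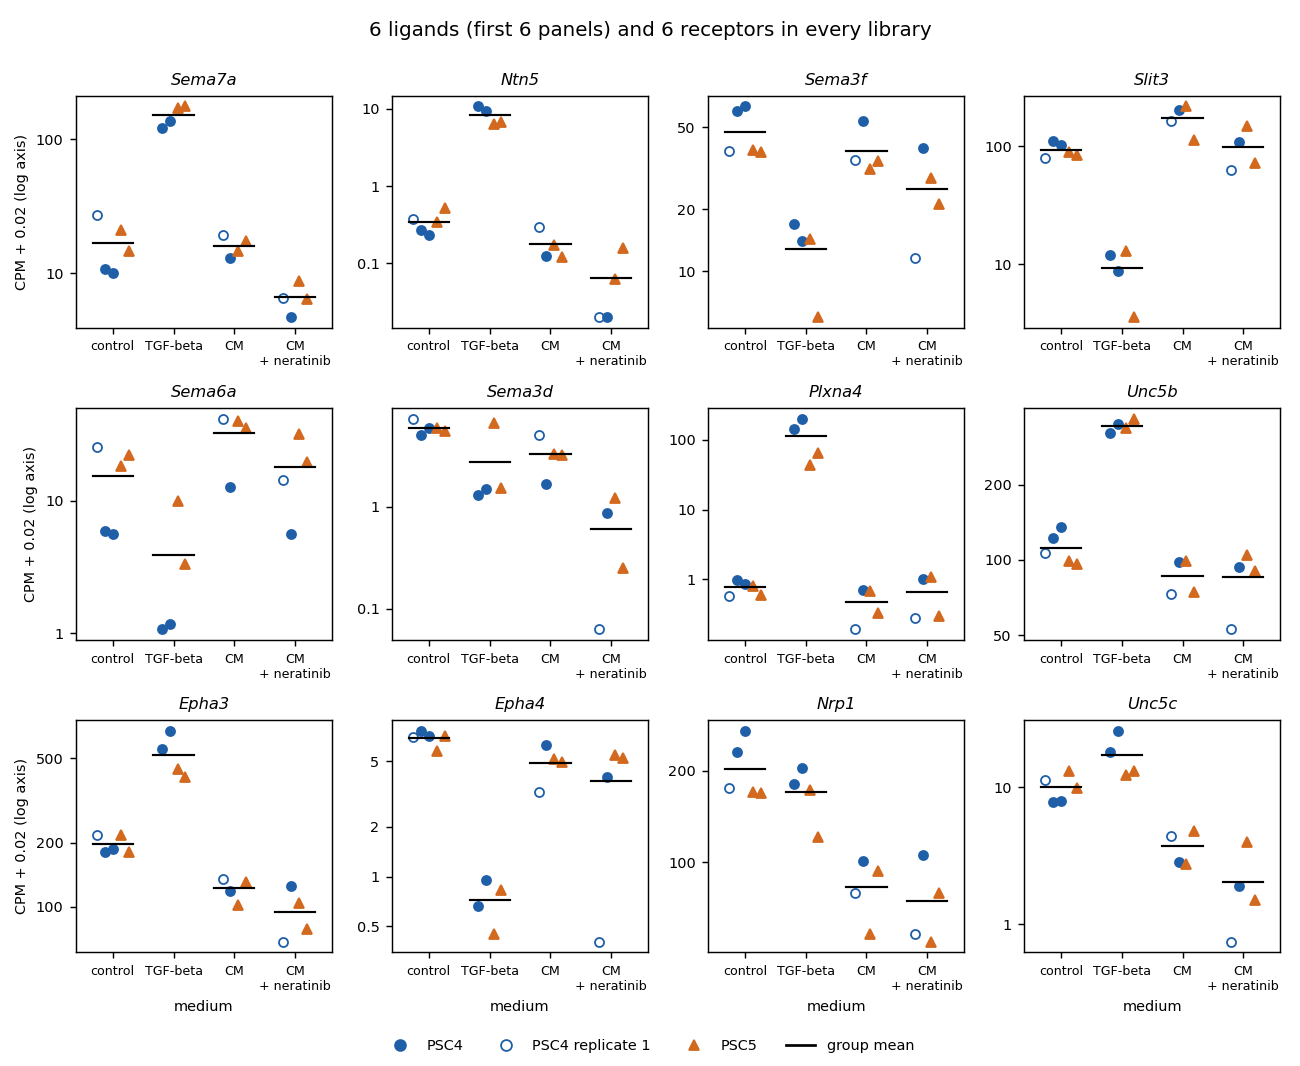
CPM plus 0.02 on a log axis for 6 ligands and 6 receptors by medium, 1 point per library, with circles for PSC4 (open for replicate 1), triangles for PSC5 and a bar at each group mean. Sema7a, Ntn5, Plxna4, Unc5b and Epha3 stand above every control in all TGF-beta libraries, and Sema3f, Slit3 and Epha4 below.

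Among the receptors, Plxna4, which transduces class 3 and class 6 semaphorins, had the largest change of the set. It measured 0.556, 0.965, 0.846, 0.7902 and 0.567 CPM in control, 142, 202, 43.8 and 64.1 CPM with TGF-beta, 0.1699, 0.6704, 0.6502 and 0.302 CPM in CM, and 0.255, 0.973, 1.04 and 0.275 CPM in CM with neratinib. Control libraries held 14 to 27 counts and TGF-beta libraries 1018 to 5595, a 152-fold difference of means (log2 change 7.17 ± 0.43, adjusted p = 2.2e-08). Both PSC4 libraries were above both PSC5 libraries, but the difference in response between the lines was not called (interaction log2 -1.45 ± 0.75, unadjusted p = 0.0797, adjusted p = 1). Even so, per kilobase Plxna4 with TGF-beta (8.01 CPM per kilobase) stayed below Plxna1 (39.0) and Plxnb2 (74.8), the plexins with the highest levels.

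Unc5b, a netrin receptor that mediates repulsion, measured 107, 122, 135, 98.8 and 96.1 CPM in control, 322, 349.7, 339 and 368 CPM with TGF-beta, 73.2, 98.05, 98.95 and 74.3 CPM in CM, and 52.6, 93.6, 104 and 90.4 CPM in CM with neratinib. All TGF-beta libraries were above all others, with little spread (log2 change 1.62 ± 0.17, adjusted p = 4.57e-06). Epha3, a kinase that binds A-type ephrins, measured 218, 180.3, 187, 218 and 181 CPM in control, 555, 674, 442 and 407 CPM with TGF-beta, 136, 118, 102 and 131 CPM in CM, and 68.5, 125, 104 and 78.8 CPM in CM with neratinib. TGF-beta libraries were all above control and those of both CM groups all below it (log2 change 1.4 ± 0.16, adjusted p = 1.23e-05). Per kilobase, Plxnb2, Epha3, Unc5b and Sema7a were the highest members with TGF-beta, at 74.8, 59.7, 55.1 and 45.8 CPM per kilobase. In control the order was Plxnb2 (91.2), Plxna1 (35.4), Ntn1 (26.5) and Epha3 (22.7).

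Epha4, which binds ephrins of both classes, fell. It measured 6.996, 7.65, 7.15, 5.75 and 7.13 CPM in control, 0.639, 0.939, 0.43 and 0.814 CPM with TGF-beta, 3.23, 6.25, 5.12 and 4.96 CPM in CM, and 0.383, 4.01, 5.45 and 5.22 CPM in CM with neratinib. No TGF-beta library reached 1 CPM (log2 change -3.3 ± 0.52, adjusted p = 0.000161), and in CM with neratinib only PSC4 replicate 1 was as low. Epha7 measured 15.5, 7.83, 8.07, 16.1 and 18.1 CPM in control, 3.31, 5.85, 3.74 and 3.54 CPM with TGF-beta, 12.4, 6.14, 12.2 and 13.2 CPM in CM, and 6.21, 8.76, 14.5 and 8.202 CPM in CM with neratinib. All TGF-beta libraries were below all controls (log2 change -1.65 ± 0.30, adjusted p = 0.000577). Thus of 5 EphA receptors 1 rose and 2 fell, while no EphB receptor was called. Among genes not called, some passed the threshold under another setting. These included Ephb3 with the block for line and replicate number (log2 change -0.52, adjusted p = 0.00802) and without the 3 libraries (log2 change -0.46, adjusted p = 0.00274), Plxnc1 under the same settings (log2 change -0.9, adjusted p = 0.0062 and log2 change -0.94, adjusted p = 0.00174), and Sema3d with the block (log2 change -1.38, adjusted p = 0.0442). Leaving out PSC5 replicate 1 of TGF-beta, whose levels of Sema3d and Epha1 lay within or above the control range, gave calls for Sema3d (log2 change -2.07, adjusted p = 0.0105) and Epha1 (log2 change -0.98, adjusted p = 0.0085). Without the 3 libraries Efna3 (log2 change 0.59, adjusted p = 0.0274), Plxna3 (log2 change -0.31, adjusted p = 0.027) and Unc5c (log2 change 0.86, adjusted p = 0.0423) were called as well.

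Robo3, a divergent robo receptor of commissural axons, measured 2.38, 0.965, 0.564, 2.05 and 2.98 CPM in control, 0.0751, 0.0361, 0.258 and 0.285 CPM with TGF-beta, 0.781, 0.282, 0.115 and 1.61 CPM in CM, and 0.766, 0.545, 0.216 and 2.199 CPM in CM with neratinib. TGF-beta libraries, at 1 to 7 counts, were all below the controls (log2 change -3.61 ± 0.80, adjusted p = 0.00235). Plxnb3, a receptor of Sema5a, had 9 to 18 counts in the control libraries and at most 2 in any TGF-beta library, and with 3 counts per library as the floor it was at least 4.08-fold lower. It met the count minimum in control libraries only, so a fall in the other media was favoured by the rule. Plxnb2 was called lower with means of 577 CPM and 704 CPM. Leaving out 1 library at a time gave 23 to 28 called members for TGF-beta, beside 33.7% to 39.7% of all genes.

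**Figure D3:**
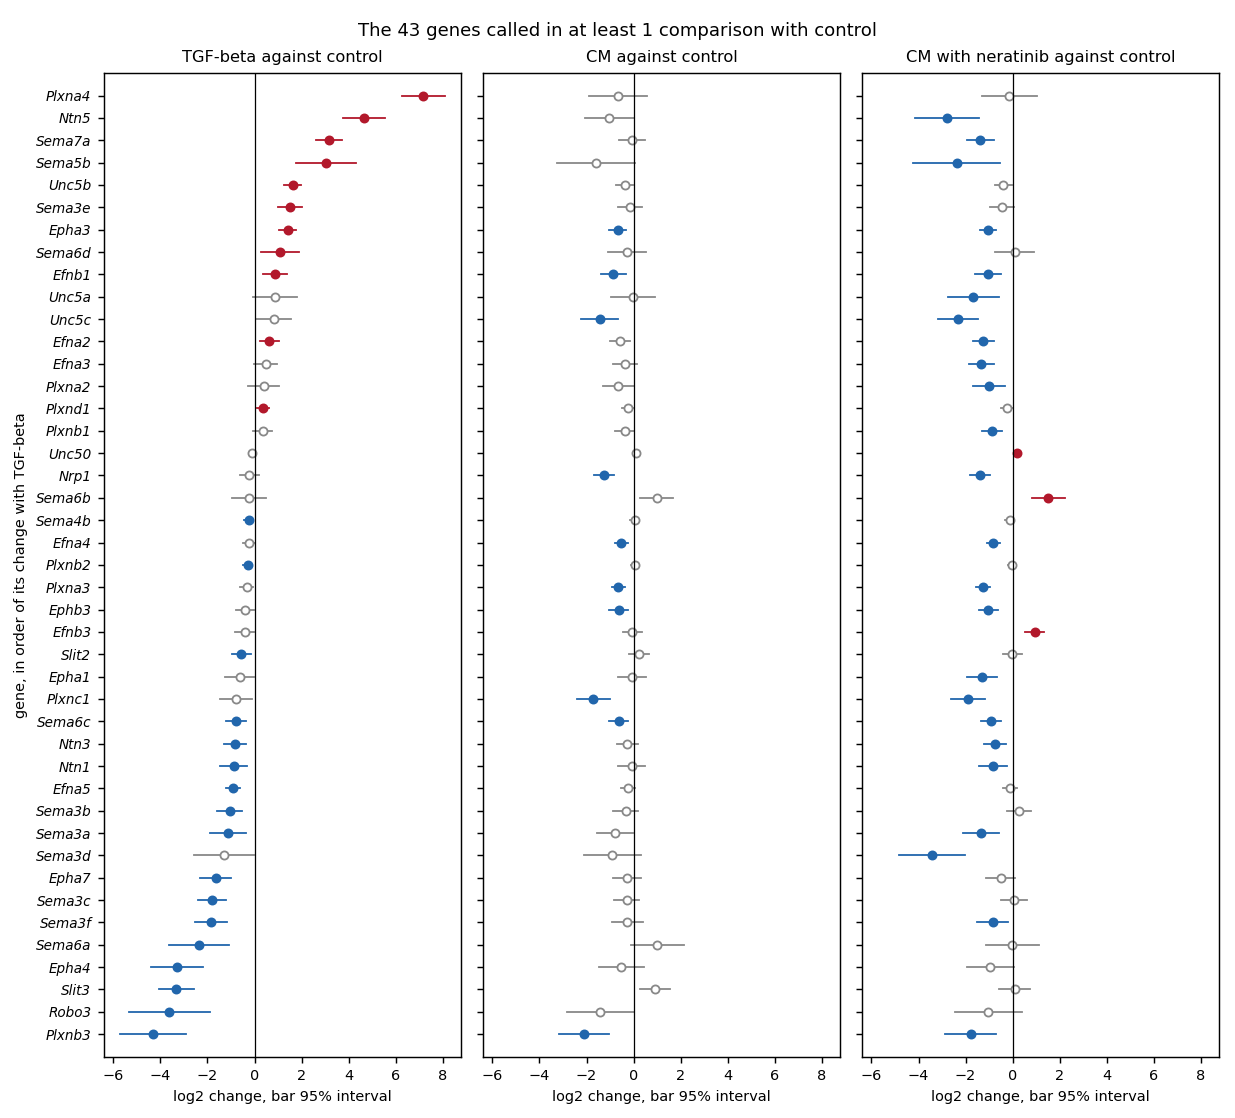
Log2 change with its 95% interval for the 43 genes called in at least 1 of the 3 comparisons with control, in the order of the change with TGF-beta; filled red points were called higher, filled blue lower and open grey not called. The 3 panels share the same 5 control libraries. TGF-beta points run from below -4 to above 7, while points called in CM lie left of 0.

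CM alone changed fewer of these genes, and those called were all lower: the semaphorin co-receptor Nrp1, the plexins Plxna3, Plxnb3 and Plxnc1, the netrin receptor Unc5c, the Eph receptors Epha3 and Ephb3, and the ligands Efnb1, Efna4 and Sema6c. These are 10 of the 63, beside 14.2% of all genes, with 0 higher (7.05% of all genes) and 10 lower (7.14% of all genes). Receptors were 7 of the 10. Over the whole set 48 of 63 changes were below 0, with a median of -0.26 on the log2 scale against 0.00 over all genes. Without the 3 libraries labelled PSC4 replicate 1, 13 were called, 2 higher and 11 lower, beside 18.1% of all genes. With a block for each line and replicate number, 20 were called, 5 higher and 15 lower, beside 23.3% of all genes, so that the absence of higher genes did not hold. The number fell to 3 without CM PSC5 replicate 1 (beside 5.68% of all genes), to 5 without control PSC5 replicate 1 (8.68% of all genes) and to 6 without control PSC4 replicate 2 (10.1% of all genes), so that calls over all genes fell as well.

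Nrp1, which pairs with plexins to bind class 3 semaphorins and also binds VEGF, measured 175, 229.8, 270.5, 170.1 and 168 CPM in control, 181, 204, 172 and 121 CPM with TGF-beta, 79.3, 101, 57.9 and 93.6 CPM in CM, and 58.02, 106, 54.9 and 79.2 CPM in CM with neratinib. Every library of both CM groups was below every control (log2 change -1.25 ± 0.20, adjusted p = 0.00122 in CM and log2 change -1.4 ± 0.20, adjusted p = 0.000103 with neratinib). Nrp2, the other neuropilin, was not called, with means of 246 CPM in control and 337 CPM in CM. Plxnc1, the plexin that binds Sema7a, measured 1.95, 4.79, 4.33, 3.63 and 2.41 CPM in control, 2.85, 1.91, 1.89 and 1.26 CPM with TGF-beta, 1.09, 1.34, 0.803 and 0.872 CPM in CM, and 0.426, 1.32, 0.821 and 0.962 CPM in CM with neratinib. Its CM levels were all below control (log2 change -1.71 ± 0.33, adjusted p = 0.00447). Plxna3, a partner of the neuropilins, measured 109, 106, 96.1, 110.3 and 117 CPM in control, 87.5, 81.8, 100.2 and 76.7 CPM with TGF-beta, 74.6, 63.97, 65.8 and 73.9 CPM in CM, and 31.5, 37.7, 59.3 and 55.3 CPM in CM with neratinib. Its levels stepped down from control to CM without overlap (log2 change -0.65 ± 0.13, adjusted p = 0.00534).

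Unc5c, a netrin receptor, measured 11.2, 7.83, 7.89, 13.2 and 9.86 CPM in control, 18, 25.9, 12.2 and 13.2 CPM with TGF-beta, 4.42, 2.82, 2.72 and 4.796 CPM in CM, and 0.724, 1.87, 3.98 and 1.47 CPM in CM with neratinib. CM libraries were all below control libraries (log2 change -1.44 ± 0.37, adjusted p = 0.0195). Any of 3 libraries ended that call when left out, CM PSC4 replicate 2 (adjusted p = 0.062), CM PSC5 replicate 1 (adjusted p = 0.0773) and control PSC5 replicate 1 (adjusted p = 0.0533). Ephb3, a kinase for B-type ephrins, measured 54.5, 61.4, 65.9, 52.95 and 50 CPM in control, 52.5, 54.6, 37.1 and 27.2 CPM with TGF-beta, 34.1, 44.2, 30.98 and 34.5 CPM in CM, and 17.3, 37.1, 28.4 and 25.4 CPM in CM with neratinib. CM and control did not overlap (log2 change -0.63 ± 0.19, adjusted p = 0.0359), yet leaving out any 1 of 8 of the 9 libraries ended the call, with adjusted p between 0.039 and 0.107 over the 9, and with the block it was -0.58 on the log2 scale (adjusted p = 0.0112).

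Epha3 and Efnb1, both called higher with TGF-beta, were called lower in CM. For Epha3 the change was -0.68 ± 0.17 on the log2 scale (adjusted p = 0.0158), which was lost without CM PSC4 replicate 2 (adjusted p = 0.054) or CM PSC5 replicate 1 (adjusted p = 0.0658). For Efnb1 it was -0.87 ± 0.25 on the log2 scale (adjusted p = 0.0329), which was lost in 6 of the 9 leave-outs, with adjusted p between 0.0169 and 0.0954 over the 9, whereas the block gave -0.79 on the log2 scale (adjusted p = 0.000103). Plxnb3 had 1 to 5 counts in CM. Efna4 had a mean of 8.37 CPM in CM and 11.9 CPM in control, and Sema6c means of 13.4 CPM and 20.8 CPM.

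Some ligands had higher levels in CM without a call. Slit3 was higher in all 4 CM libraries than in any control, with means of 173 CPM and 92.9 CPM, and was called with the block (log2 change 0.87, adjusted p = 0.00833). Sema6a had means of 32.4 CPM and 15.4 CPM and was called with the block (log2 change 0.87, adjusted p = 0.0269) and without the 3 libraries (log2 change 0.96, adjusted p = 0.0393). Sema6b, a transmembrane semaphorin, measured 2.74, 5.399, 6.66, 2.08 and 2.55 CPM in control, 3.98, 2.42, 3.78 and 1.79 CPM with TGF-beta, 4.21, 11.8, 6.69 and 5.37 CPM in CM, and 13.8, 14.2, 6.14 and 8.06 CPM in CM with neratinib. It was above its own line and number's control in each CM library (log2 change 0.99, adjusted p = 0.0449 with the block and log2 change 1.12, adjusted p = 0.0197 without the 3 libraries). With the block, Robo3 (log2 change -1.88, adjusted p = 0.0128) and Sema3a (log2 change -0.89, adjusted p = 0.0315) were called lower.

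Set directly against TGF-beta, CM differed in 35 of the 63 genes, beside 35.3% of all genes, with 17 higher in CM (17.8% of all genes) and 18 lower (17.5% of all genes). Without the 3 libraries 38 were called, 16 higher and 22 lower, beside 41.6% of all genes. By family, 8 of 9 plexins were called, 6 of them lower in CM, and 10 of 20 semaphorins, 4 of them lower. Slit3 (log2 change 4.22 ± 0.38, adjusted p = 1.03e-06) and Sema6a (log2 change 3.37 ± 0.63, adjusted p = 0.00071) were higher in CM, and Plxna4 was lower (log2 change -7.84 ± 0.50, adjusted p = 5.28e-08). These 3 had no overlap between the media. Robo3 was higher in CM at an adjusted p that rounds to 0.05, and that call was lost without any 1 of 7 of the 8 libraries and with the block (log2 change 1.52, adjusted p = 0.0642). The call of Sema3b was also lost without any 1 of 7 of the 8 libraries, with adjusted p between 0.0705 and 0.147 over those 7. It was lost with the block too (log2 change 0.72, adjusted p = 0.0511). Tested together, the 4 media differed for 48 of the 63 genes, beside 63.6% of all genes.

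CM with neratinib had the most genes called below control, 24 beside 17 with TGF-beta and 10 in CM, over the same 5 control libraries. Sema3d, Ntn5, Unc5c, Plxnc1, Nrp1 and Sema7a were among them, and the ligands Efnb3 and Sema6b rose. Against control 27 of the 63 were called, beside 43.1% of all genes, with 3 higher (22.2% of all genes) and 24 lower (20.9% of all genes). Of the 24, 13 were ligands and 11 receptors, and for 18 the fitted log2 change was -1 or lower, beside 7.52% of all genes. The median change was -0.47 against 0.00 over all genes, and 49 of 63 changes were below 0. Without the 3 libraries labelled PSC4 replicate 1 the count was 30, with 3 higher and 27 lower, beside 40.3% of all genes. Leaving out 1 library gave 22 to 28, beside 35.1% to 44.3% of all genes.

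The effect of neratinib itself was read against CM. There 10 of the 63 were called, beside 20.5% of all genes, with 2 higher (10.8% of all genes) and 8 lower (9.63% of all genes). Without the 3 libraries 4 were called, 2 higher and 2 lower, beside 14.2% of all genes, and with the block 17 were called, 2 higher and 15 lower, beside 32.8% of all genes. Leaving out CM PSC4 replicate 2 left 6, beside 15% of all genes, and leaving out neratinib PSC4 replicate 1 also left 6, beside 14.3% of all genes. Changes in this comparison are given below unless control is named.

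Sema7a was lower with neratinib in all 4 libraries than in any CM or control library, with means of 6.57 CPM, 16.02 CPM and 16.7 CPM (log2 change -1.3 ± 0.28, adjusted p = 0.00536). Without the 3 libraries the call held (log2 change -1.21, adjusted p = 0.00106). Sema3d, a secreted semaphorin, measured 7.35, 5.11, 5.88, 5.999 and 5.603 CPM in control, 1.28, 1.48, 6.58 and 1.505 CPM with TGF-beta, 5.097, 1.66, 3.25 and 3.19 CPM in CM, and 0.0426, 0.856, 1.21 and 0.229 CPM in CM with neratinib. Neratinib libraries were below all CM and control libraries, with 1 to 28 counts (log2 change -2.52 ± 0.66, adjusted p = 0.0161, and log2 change -3.43 ± 0.66, adjusted p = 0.000993 against control). The library labelled PSC4 replicate 1 had the single count, and without the 3 libraries the change against CM was -1.72 on the log2 scale (adjusted p = 0.0763). It was also lost without CM PSC4 replicate 1 (adjusted p = 0.0581) or neratinib PSC5 replicate 2 (adjusted p = 0.0516).

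Epha1, an Eph kinase often found on epithelia, measured 5.29, 4.72, 3.91, 5.604 and 5.603 CPM in control, 2.404, 1.95, 6.32 and 3.25 CPM with TGF-beta, 6.29, 4.09, 4.09 and 4.93 CPM in CM, and 1.06, 2.33, 2.29 and 2.703 CPM in CM with neratinib. Neratinib libraries were below all CM and control libraries (log2 change -1.26 ± 0.31, adjusted p = 0.0106), but without the 3 libraries the change was -0.84 on the log2 scale (adjusted p = 0.069). Efna3 measured 8.63, 4.505, 6.27, 8.59 and 7.13 CPM in control, 9.39, 12.3, 8.43 and 8.83 CPM with TGF-beta, 5.44, 5.08, 4.93 and 6.84 CPM in CM, and 1.49, 2.53, 3.93 and 3.53 CPM in CM with neratinib. It showed the same separation (log2 change -0.98 ± 0.26, adjusted p = 0.0157), with log2 change -0.76, adjusted p = 0.0531 when the 3 libraries were removed. Efna2 was lower too (log2 change -0.66 ± 0.21, adjusted p = 0.0394). That call was lost in 5 of 8 leave-outs, with adjusted p between 0.00957 and 0.115 over the 8, and without the 3 libraries (log2 change -0.62, adjusted p = 0.0717).

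Plxna3 stepped down again from CM to CM with neratinib, with no overlap (log2 change -0.63 ± 0.14, adjusted p = 0.00598), and did so without the 3 libraries (log2 change -0.43, adjusted p = 0.033). Unc5a, a netrin receptor at low level, measured 0.398, 1.04, 1.02, 0.718 and 0.532 CPM in control, 1.47, 1.23, 0.817 and 1.79 CPM with TGF-beta, 0.815, 1.06, 0.574 and 0.469 CPM in CM, and 0.128, 0.234, 0.476 and 0.0458 CPM in CM with neratinib. The groups touched (log2 change -1.66 ± 0.52, adjusted p = 0.0363), and the call was lost in 6 of 8 leave-outs, with adjusted p between 0.00323 and 0.106 over the 8, and without the 3 libraries (log2 change -1.41, adjusted p = 0.112). Sema4a, a transmembrane semaphorin, was called lower with means of 1.35 CPM and 2.56 CPM. Efnb3, a B-type ephrin, was called higher, with 7.12 to 13.7 CPM in the neratinib libraries, 3.88 to 5.50 CPM in CM and 4.16 to 5.82 CPM in control. Plxna1 was called higher with means of 343 CPM and 277 CPM. With the block, Slit3 (log2 change -0.86, adjusted p = 0.0077), Sema6a (log2 change -0.95, adjusted p = 0.0149), Sema3f (log2 change -0.69, adjusted p = 0.0304) and Ephb3 (log2 change -0.43, adjusted p = 0.0376) were called lower.

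**Figure D4:**
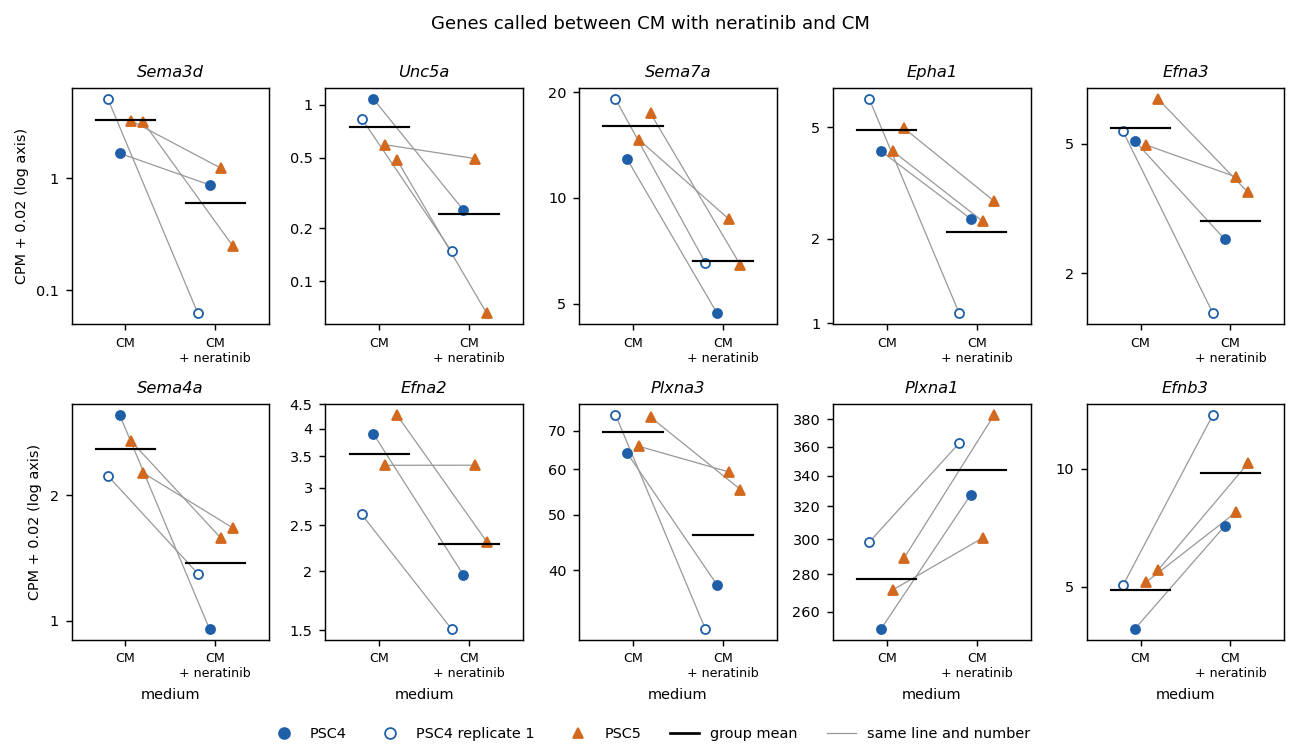
CPM plus 0.02 on a log axis in the 4 CM and 4 CM with neratinib libraries for the 10 genes called between them; grey lines join the same line and replicate number, symbols are as in the plot of ligands and receptors, and bars are group means. Lines fall in all 4 pairs for Sema7a, Sema3d, Epha1, Efna3, Sema4a, Unc5a and Plxna3, run flat in 1 pair for Efna2, and rise in all 4 for Plxna1 and Efnb3.

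Against control, several genes were called lower with neratinib that were not called in CM. Ntn5 had at most 3 counts in any neratinib library and, with the same floor, was at least 2.56-fold lower than control. Sema5b had at most 4 counts (log2 change -2.39 ± 0.87, adjusted p = 0.0373), a call lost in 6 of 9 leave-outs, with adjusted p between 0.0297 and 0.135 over the 9. Sema3a fell (log2 change -1.35 ± 0.36, adjusted p = 0.00814) with overlap, since the lowest control, PSC4 replicate 3, measured 22.3 CPM. Sema3f fell (log2 change -0.85 ± 0.31, adjusted p = 0.0371), with PSC4 replicate 2 inside the control range and the call lost in 6 of 9 leave-outs, between 0.0222 and 0.0835 in adjusted p.

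Plxna2, a receptor of class 3 and class 6 semaphorins, measured 18.2, 30.3, 34.6, 19.1 and 19.01 CPM in control, 44.5, 62.9, 11.4 and 16.4 CPM with TGF-beta, 14.9, 20.1, 9.83 and 13.8 CPM in CM, and 8.21, 17.2, 9.38 and 9.81 CPM in CM with neratinib. Neratinib libraries were below all controls (log2 change -1.02 ± 0.32, adjusted p = 0.0178), and the call was lost without neratinib PSC4 replicate 1 (adjusted p = 0.0637). Unc5c fell too (log2 change -2.34 ± 0.40, adjusted p = 0.000391). Sema6b rose (log2 change 1.51 ± 0.33, adjusted p = 0.00228), with PSC5 replicate 1 inside the range of the PSC4 controls. Ntn1, Ntn3, Plxnb1 and Sema6c were also called lower, and with the block so were Robo3 (log2 change -1.43, adjusted p = 0.0198) and Unc5b (log2 change -0.37, adjusted p = 0.0453). In the direct comparison of CM with and without neratinib, Ntn5, Sema5b, Sema3a, Sema3f, Plxna2, Unc5c and Sema6b were not called.

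Levels of several of these genes differed between the cell lines. The lines were also at different passages, so line and passage cannot be told apart here. With the labels as given, 7 of the 63 were called between PSC5 and PSC4, beside 6.97% of all genes, and 31 without the 3 libraries, beside 42.6% of all genes. Ephb6, a kinase-dead EphB receptor, measured 20.0 to 38.4 CPM in the 6 other PSC4 libraries, 5.47 to 10.4 CPM in PSC5 and 4.98 to 9.18 CPM in the 3 labelled PSC4 replicate 1. Robo2 ran the other way, at 0.0361 to 0.608 CPM, 0.687 to 5.96 CPM and 0.766 to 6.00 CPM. With the labels as given, edgeR's interaction test of a different response in the lines called 0 of the 63 and 0% of all genes for TGF-beta, for CM and for neratinib in CM, with 5, 0 and 2 of the 63 at an unadjusted p under 0.05. When the 3 libraries labelled PSC4 replicate 1 were removed, these tests again called 0 of the 63, beside 0.0142%, 0% and 0% of all genes, with 19, 1 and 1 of the 63 at an unadjusted p under 0.05, and with the 3 counted as PSC5 the numbers at that level were 15, 1 and 0. The share of all genes at an unadjusted p under 0.05 was not computed. Whether these numbers exceed that share is therefore not known, and no difference between the lines in response is drawn from them.

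Slit2 had the smallest interaction p with TGF-beta, 0.00111 before and 0.641 after adjustment. Its TGF-beta levels were 432 and 522 CPM in PSC4 and 239 and 199 CPM in PSC5, beside controls of 487, 563 and 514 CPM in PSC4 and 496 and 471 CPM in PSC5. For Plxna2, whose values in every library are given above, TGF-beta levels lay above all controls in PSC4 and below its line's controls in PSC5 (unadjusted p = 0.0134, adjusted p = 0.989). The codes T6 and T8 of the conditioned media, which go with the replicate number, gave 0 calls among the 63 and 0% of all genes by edgeR, with 9 of the 63 at an unadjusted p under 0.05. With the same 3 removed the codes again gave 0 calls among the 63, beside 0.0356% of all genes, with 14 of the 63 at that level. For the codes too, the share of all genes at that level was not computed.

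Other parts of the guidance pathways were read from 2 lists. Of 19 further receptors, ligands and co-receptors, such as neogenin, the repulsive guidance molecules and cell adhesion molecules, 15 could be tested. With TGF-beta 3 rose and 7 fell, beside 19.7% and 20.5% of all genes. In CM 0 rose and 1 fell, beside 7.05% and 7.14%, and with neratinib against control 2 rose and 6 fell, beside 22.2% and 20.9%. The netrin receptor Neo1 rose with TGF-beta (0.37 ± 0.13, adjusted p = 0.0367) while its ligand Rgmb fell (-0.88 ± 0.15, adjusted p = 0.000356). Itgb1, the beta-1 integrin through which Sema7a can signal, rose (0.95 ± 0.06, adjusted p = 2.2e-08), and Dscam, an adhesion receptor for netrin, fell (-3.60 ± 0.49, adjusted p = 4.51e-05). Of 42 genes that act inside the cell downstream of guidance receptors, 40 could be tested: 15 rose and 9 fell with TGF-beta, 1 rose and 11 fell in CM, and 6 rose and 11 fell with neratinib against control, to be read beside the same shares of all genes. The medians of that list were 0.02, -0.08 and -0.15 on the log2 scale, beside -0.02, 0.00 and 0.00 over all genes.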

How the data were processed

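RNA-seq was available for 17 libraries. Per the submitters' processing notes, the tools were Salmon 1.4.0 and DESeq version 2 and the mouse builds GRCm38 and mm10, with no role stated; the annotation release and options are not given in the sources used here. The values that the authors deposited are expected counts per gene, not normalized, and Salmon is the quantifier that the submitters' processing notes name. Of the values above 0, 74.8% were not whole, and all were rounded, which changed no library total by more than 307.9 counts. Symbols came from GENCODE M21.

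Genes kept by edgeR's filterByExpr (13923) were fitted in edgeR 4.0.16 (R 4.3.3, limma 3.58.1) with TMM factors, the 4 media and the cell line, in 1 quasi-likelihood model over all libraries, and p-values were adjusted over all genes by the Benjamini-Hochberg method. CPM are the rounded counts over the library total times its TMM factor, scaled to a common depth. Intervals are 95%. The fit was tested on simulated data. Reads shared by overlapping or near-identical genes cannot be assigned with certainty in expected counts. The 9 genes under the count minimum were left out.

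Values in every library are given for genes called in at least 1 of the 5 comparisons with a log2 change of at least 1 there and a mean of at least 1 CPM in a group. The members and gene lists were chosen with earlier results of these data known. Same line and replicate number paired libraries: deviations from group means correlated above 0.1 in 22 of 22 such pairs (lowest 0.12, median 0.30), so fits with that block were run. Pairs of the same line and another number were above 0.1 in 14 of 32 (median -0.08, highest 0.61). Pairs from different lines were so in 14 of 54 (median -0.18, highest 0.38). Alternatives also covered other size factors, filters, DESeq2 1.42.0, models without the line or with only 2 groups, the 3 libraries labelled PSC4 replicate 1 removed or counted with PSC5, and each library left out.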

Additional observations from a re-analysis of the deposited data

Results flagged for a closer look

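Of 120 sets of 4 or 5 libraries examined, 7 held 1 library apart from the rest by Dixon's criterion at the 95% level, and chance alone gives about 1 in 20. Among the TGF-beta libraries PSC5 replicate 1 was the highest for 2 secreted semaphorins, with Sema3d at 6.58 CPM where the others measured 1.28 to 1.505 CPM, and Sema3e at 27.9 CPM where they measured 11.1 to 12.4 CPM. Epha7 was highest with TGF-beta in PSC4 replicate 3, at 5.85 CPM beside 3.31 to 3.74 CPM. Among the CM libraries PSC4 replicate 2 was lowest for Epha7, at 6.14 CPM beside 12.2 to 13.2 CPM, and highest for Sema3f, at 53.7 CPM beside 31.4 to 34.7 CPM, and for Sema6d, at 13.9 CPM beside 5.01 to 5.91 CPM. That library was the only CM library from PSC4 other than the one labelled replicate 1. Sema3e was lowest in CM in PSC5 replicate 1, at 3.79 CPM beside 5.16 to 5.40 CPM.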

How the results depend on the processing

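Counts of called genes moved by over 1.5 times under some settings. Requiring a log2 change of at least 1 left 18 with TGF-beta, 4 in CM, 4 for neratinib against CM and 22 for CM against TGF-beta, beside 12%, 4%, 4.39% and 11.4% of all genes. For CM against control, 16 (4 higher) were called with only 2 groups in the model, 18 (5 higher) with PSC4 replicate 1 counted as PSC5, 20 (5 higher) with the replicate block and 13 (2 higher) by DESeq2, beside 20.6%, 21.4%, 23.3% and 19.4% of all genes. For neratinib against CM the counts were 2 with only 2 groups in the model, 4 without the 3 libraries and 17 with the block, beside 4.54%, 14.2% and 32.8% of all genes. The line comparison gave 31 calls with the 3 libraries removed, beside 5980 of all 14049 genes tested. With them counted as PSC5 it gave 31, beside 6046 of all 13923. Leaving out 1 library gave 3 to 10 calls for CM against control, 6 to 14 for neratinib against CM, 23 to 28 for TGF-beta, 22 to 28 for neratinib against control and 27 to 33 for CM against TGF-beta, beside 5.68% to 12.9%, 12.4% to 26.1%, 33.7% to 39.7%, 35.1% to 44.3% and 29% to 32.8% of all genes. With upper-quartile factors 37.5% of all genes called in CM were higher, beside 49.7% with TMM. The genes given with values in every library made 150 pairs with the 5 comparisons. They were chosen by their calls and log2 changes in these same data, which favours kept calls, and no matching share of all genes was computed. Of the 150 pairs, 76 were called, and 52 of these kept their call in every alternative run. The other 24 lost it in at least 1, 27 of the 74 uncalled were gained in at least 1, and no called value changed sign. The values that did change sign belonged to 17 uncalled pairs, and the cause was not tested. With PSC4 replicate 1 counted as PSC5, the values that changed sign were Unc5a 0.0646 (CM against control). Without the line term, the values that changed sign were Sema6a 0.21 (neratinib against control), Sema6d -0.084 (neratinib against control). With only 2 groups in the model, the values that changed sign were Sema6a 0.00823 (neratinib against control). With the block of line and replicate number, the values that changed sign were Plxna4 0.0668 (neratinib against control), Sema3a -0.0633 (CM against TGF-beta), Sema3c -0.0318 (neratinib against control), Unc5a 0.0704 (CM against control). Without the 3 PSC4 replicate 1 libraries, the values that changed sign were Epha7 0.0422 (neratinib against CM), Plxna4 0.15 (neratinib against control), Plxnc1 0.0483 (neratinib against CM), Sema3a -0.0366 (CM against TGF-beta), Sema3d -0.0475 (CM against TGF-beta), Sema6a 0.21 (neratinib against control), Sema7a 0.0367 (CM against control), Unc5b 0.0927 (neratinib against CM). With upper-quartile factors, the values that changed sign were Sema3c -0.0158 (neratinib against control). Leaving out 1 library at a time, the ranges that crossed 0 were Efnb1 -0.37 to 0.0163 (neratinib against CM), Epha1 -0.33 to 0.0844 (CM against control), Epha4 -0.61 to 0.00512 (neratinib against CM), Plxna4 -0.00193 to 0.95 (neratinib against CM), Plxna4 -0.66 to 0.29 (neratinib against control), Plxnc1 -0.39 to 0.092 (neratinib against CM), Robo3 -0.18 to 0.89 (neratinib against CM), Sema3c -0.0456 to 0.21 (neratinib against control), Sema3d -0.047 to 1.2 (CM against TGF-beta), Sema6a -0.21 to 0.56 (neratinib against control), Sema6d -0.27 to 0.41 (neratinib against control), Sema7a -0.24 to 0.24 (CM against control), Slit3 -0.21 to 0.28 (neratinib against control), Unc5a -0.21 to 0.12 (CM against control), Unc5b -0.13 to 0.17 (neratinib against CM). Depth limits genes such as Slit1, Plxnb3, Ntn5, Robo3, Sema5b and Unc5a, for which a whole group holds few counts per library.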

Other observations

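Sox10, a transcription factor of neural crest and Schwann cells, had 31 to 57 counts in the 4 TGF-beta libraries, at most 1 count in a control library and 0 counts in all 8 libraries of CM with or without neratinib. The difference was not tested.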
